A study of Mus musculus with 6 samples.

Results

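Transcripts of 10 genes of the axon cytoskeleton and growth cone were measured in retinal ganglion cells (RGCs) whose axons project to the same side of the brain as the eye (ipsilateral) or to the opposite side (contralateral). The genes were the neurofilament subunits Nefl, Nefm and Nefh, the filament protein Ina, the neuronal tubulin Tubb3, the microtubule binding proteins Mapt, Map1b and Dcx, the tubulin binding protein Stmn2 and the growth cone protein Gap43. Every probe set annotated to exactly 1 of these symbols was taken, which gave 22 probe sets for the 10 genes, of 45037 probe sets and 18193 genes in all. All 22 lay above the filter on dim probe sets, a mean log2 intensity of 4.74.

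The samples were 3 of ipsilateral and 3 of contralateral RGCs from C57BL/6J mouse embryos, labelled E16 and harvested at E16.5. Rhodamine dextran was applied to the cut optic tract for 2 h, so that RGCs with an axon past the chiasm took it up, and retinas of 2 litters were pooled by side, dissociated with papain and sorted by FACS without dead cells. Each of 3 rounds gave 1 ipsilateral and 1 contralateral sample, and the study chose the rounds by how strongly Zic2, a transcription factor of ipsilateral RGCs, was enriched in a separate qPCR. RNA was amplified as cDNA and hybridized to Affymetrix mouse genome arrays, so each value is a log2 intensity of a pool of embryos.

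Neurofilaments are the intermediate filaments of axons. Nefl, Nefm and Nefh co-assemble with Ina (α-internexin), Ina is made early in differentiating neurons, and Nefh is known to appear late as axons mature and gain calibre. Microtubules are polymers of α- and β-tubulin along which axonal cargo moves. Tau (Mapt), Map1b and doublecortin (Dcx) bind and stabilize them, while stathmin 2 (Stmn2, SCG10) binds tubulin and favours disassembly. Gap43 is a membrane-bound phosphoprotein of the growth cone. In the embryonic retina RGCs are the only neurons with an axon that leaves the eye, and their axons are growing at this age.

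All 22 probe sets had a lower mean in ipsilateral than in contralateral RGCs, by 0.18 to 0.88 on the log2 scale, with a median of −0.45. At the brightest probe set of each gene the median of the 10 differences (ipsilateral minus contralateral) was −0.35, and it was −0.30, −0.26 and −0.46 in rounds 1, 2 and 3, against −0.01 over all genes. None of the 22 was called, that is, none differed by 2-fold or more with an adjusted p under 0.05 (limma, Benjamini–Hochberg over 36029 probe sets). The same rule called 0.0% of all probe sets as lower and 0.244% as higher in ipsilateral RGCs. This fit called fewer than the study's own analysis, which at these thresholds lists probe sets on both sides, most of them higher in ipsilateral RGCs. No probe set of the 10 genes is on the study's list. The standard errors of this fit, which takes no account of the rounds and pools the spread over all probe sets, were 0.38 to 0.45. Every adjusted p was 1.0, and none had an unadjusted p under 0.05 (lowest 0.0723), which 0.38% of all probe sets had on the lower side. With bulk samples, fewer RGCs in a sample and less of a transcript per RGC cannot be told apart.

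The promoters of Ina, Tubb3, Map1b and Dcx are given because these are the members for which a RefSeq promoter was matched (5 promoters of 4 genes, GRCm38.p6). Their mean was lower in ipsilateral RGCs at every probe set, as was that of the other members. Each shows the 250 bases before the transcription start, 5′ to 3′ on the strand of the gene, with matches to 4 motifs on either strand in capitals. For the TATA box the letters TATAAA were searched. For the CCAAT box they were CCAAT, for the GC box GGGCGG, and for the E-box CANNTG. No matches overlapped in the promoters shown.
Ina, chr19:47014431-47014680, plus strand: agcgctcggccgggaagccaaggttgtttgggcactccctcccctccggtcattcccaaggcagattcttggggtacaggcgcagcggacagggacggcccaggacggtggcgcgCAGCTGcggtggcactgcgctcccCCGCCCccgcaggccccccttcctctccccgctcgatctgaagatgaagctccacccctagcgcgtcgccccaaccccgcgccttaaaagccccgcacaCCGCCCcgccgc
Tubb3, chr8:123411303-123411552, plus strand: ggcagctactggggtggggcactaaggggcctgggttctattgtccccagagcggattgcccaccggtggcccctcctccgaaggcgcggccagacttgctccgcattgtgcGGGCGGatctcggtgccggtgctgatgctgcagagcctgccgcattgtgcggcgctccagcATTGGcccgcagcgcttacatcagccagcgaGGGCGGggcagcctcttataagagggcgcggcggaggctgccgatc
Map1b, chr13:99516603-99516852, minus strand: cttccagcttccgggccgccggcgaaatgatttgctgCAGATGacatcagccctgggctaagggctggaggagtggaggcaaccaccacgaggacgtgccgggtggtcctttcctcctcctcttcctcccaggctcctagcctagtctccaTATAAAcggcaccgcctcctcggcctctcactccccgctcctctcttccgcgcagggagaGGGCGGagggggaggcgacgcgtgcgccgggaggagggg
Dcx, chrX:143933220-143933469, minus strand, 1 of 2 listed: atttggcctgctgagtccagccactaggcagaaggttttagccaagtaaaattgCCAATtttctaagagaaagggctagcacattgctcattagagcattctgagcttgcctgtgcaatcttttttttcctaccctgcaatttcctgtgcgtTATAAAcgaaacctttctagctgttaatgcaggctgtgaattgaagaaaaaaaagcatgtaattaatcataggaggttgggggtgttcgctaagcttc

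The Ina, Tubb3 and Map1b promoters were rich in G and C (70.8%, 68.0% and 66.4%), and each held the GC box letters, which 32.7% of all 32851 promoters of this length held. The printed Dcx promoter had a GC content of 41.6% and none of these letters. TATAAA stood in the printed promoters of Map1b and Dcx and in 12.4% of all promoters, CCAAT in those of Tubb3 and Dcx and in 33.8% of all, and CANNTG in those of Ina and Map1b and in 66.2% of all. The other listed Dcx promoter held TATAAA but not CCAAT. No motif was shared by all 4 genes, and whether these letters bear on the differences was not tested.

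Of the 22 probe sets, 20 were lower in ipsilateral RGCs in every round, whereas 19.7% of all probe sets were. Bright probe sets as a whole leaned the same way: of the 2255 with a mean log2 intensity of 10 or more, to which 20 of the 22 belong, 38.1% were lower in every round. The exceptions among the members were Nefh and 1 of 4 Mapt probe sets, both in round 2. All ipsilateral arrays lay below all contralateral arrays at 10 of the 22 probe sets, against 2.03% of all and 5.76% of the bright probe sets. Counted once per gene at the brightest probe set, 9 of 10 genes were lower in every round (20.2% of all genes) and 5 of 10 did not overlap (1.98% of all genes). These counts carry no test, since probe sets of a gene share its transcripts and the members were chosen with earlier results known.

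**Figure D1:**
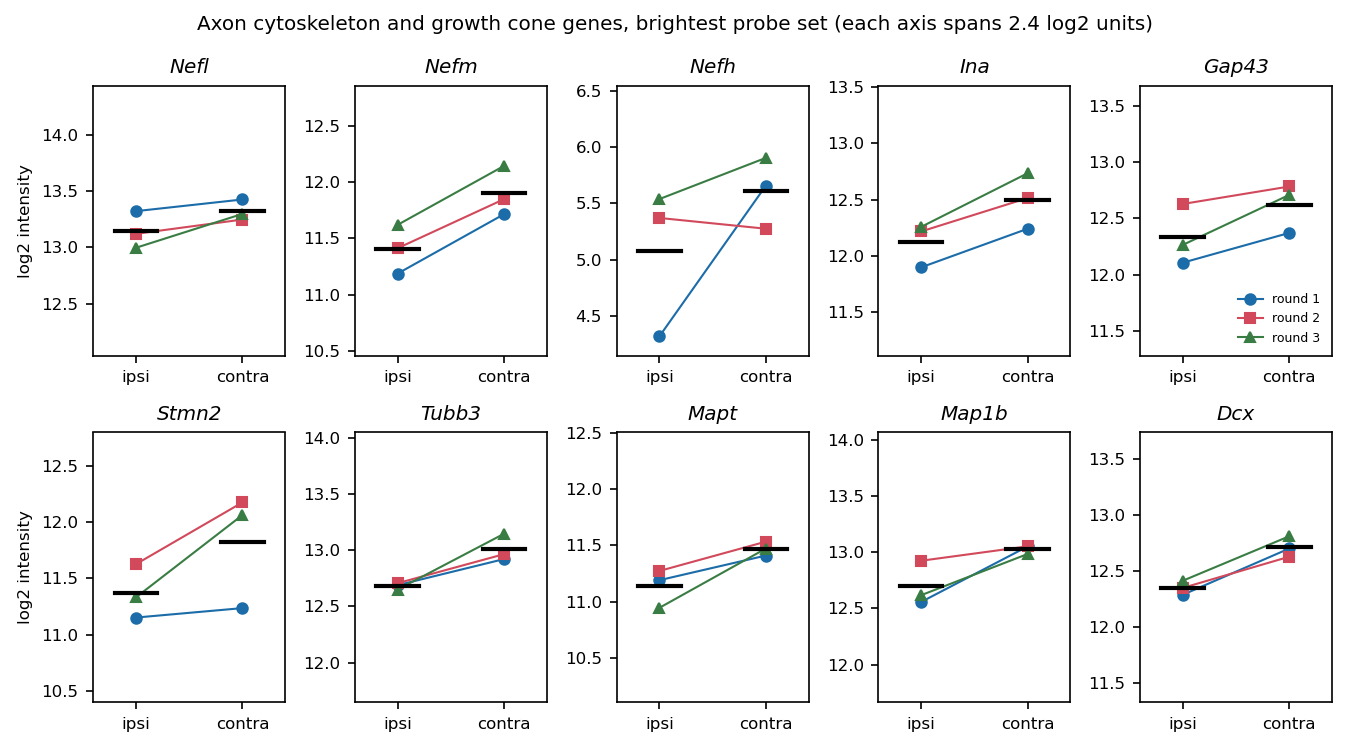
Log2 intensity of each member gene at its brightest probe set in ipsilateral (left) and contralateral (right) RGCs. Points are single arrays, lines join the arrays of a round, black bars are group means, and every axis spans the same log2 range. All lines rise to the right except the round 2 line of Nefh, and the points of the 2 sides do not overlap for Nefm, Tubb3, Mapt, Map1b and Dcx.

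Among the filament genes, Nefm, the medium neurofilament subunit, had log2 intensities of 11.19, 11.41 and 11.62 in ipsilateral RGCs of rounds 1, 2 and 3, against 11.72, 11.85 and 12.14 in contralateral RGCs. Every ipsilateral array was below every contralateral array, and the differences of the rounds were nearly equal (−0.53, −0.44 and −0.53). The mean difference was −0.50 (SE 0.39), or 1.41-fold lower in ipsilateral RGCs, with adjusted p = 1.0 by limma. With the round as a block its SE was 0.14 and its adjusted p 0.236.

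Nefl, the light subunit on which the other neurofilament proteins assemble, was read by 2 probe sets that differed in size of effect. The brighter, 1426255_at, had 13.32, 13.12 and 13.00 in ipsilateral RGCs and 13.43, 13.25 and 13.30 in contralateral RGCs. The sides overlapped there, since ipsilateral round 1 exceeded contralateral rounds 2 and 3, and the mean difference was −0.18 (SE 0.38), the smallest of all 22. It was −0.10 without ipsilateral round 3 and −0.27 without ipsilateral round 1. The dimmer, 1454672_at, had 9.97, 10.50 and 10.56 in ipsilateral RGCs and 10.56, 11.26 and 11.40 in contralateral RGCs. Its sides touched only at ipsilateral round 3 and contralateral round 1, and its mean difference was −0.73 (SE 0.41), or 1.66-fold lower in ipsilateral RGCs.

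Nefh, the heavy subunit, was the dim member. Its log2 intensities were 4.32, 5.37 and 5.54 in ipsilateral RGCs, against 5.66, 5.27 and 5.90 in contralateral RGCs. Ipsilateral round 1 was low, below the level of the filter, and round 2 went the other way by 0.10. The mean difference of −0.54 (SE 0.44) was −0.16 without ipsilateral round 1, −0.14 without both arrays of round 1 and −0.85 without both of round 2, and the SD of its round differences, 0.73, was the widest among the 22.

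Ina had 11.90, 12.22 and 12.26 in ipsilateral RGCs and 12.24, 12.51 and 12.73 in contralateral RGCs at its brightest probe set. It was lower in every round, but ipsilateral round 3 lay just above contralateral round 1. The mean difference was −0.37 (SE 0.39), and its other 2 probe sets gave −0.37 and −0.48, each lower in every round with overlapping sides.

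Tubb3, the β-tubulin isotype of neurons, had the tightest ipsilateral values of the members: 12.69, 12.71 and 12.65, against 12.92, 12.96 and 13.15 in contralateral RGCs. The sides did not overlap. Its mean was 12.68 ± 0.03 in ipsilateral and 13.01 ± 0.12 in contralateral RGCs (SD, n = 3 each), a difference of −0.33 (SE 0.38) or 1.26-fold.

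Dcx, which binds microtubules in migrating and young neurons, had 12.29, 12.35 and 12.41 in ipsilateral RGCs and 12.70, 12.63 and 12.81 in contralateral RGCs at its brightest probe set. Both sides were tight and apart, with means of 12.35 ± 0.06 and 12.71 ± 0.09 (SD, n = 3 each) in ipsilateral and contralateral RGCs, a difference of −0.36 (SE 0.38). The other 3 probe sets gave −0.48, −0.52 and −0.66. All 4 were lower in every round, and all but 1448974_at kept the sides apart.

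Map1b, an early microtubule-associated protein of growing axons, had 12.56, 12.92 and 12.62 in ipsilateral RGCs and 13.05, 13.05 and 12.98 in contralateral RGCs at its brightest probe set. The contralateral arrays were close to one another, and ipsilateral round 2 came nearest to them. The difference was −0.33 (SE 0.38), the other 2 probe sets gave −0.39 and −0.45, and the sides were apart at each of the 3.

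Mapt had 11.19, 11.27 and 10.94 in ipsilateral RGCs, against 11.41, 11.53 and 11.47 in contralateral RGCs at its brightest probe set, 1455028_at. The sides did not overlap, and the difference was −0.34 (SE 0.38), or 1.26-fold lower in ipsilateral RGCs. Its dimmest probe set, 1424719_a_at, had 8.30, 9.25 and 8.98 in ipsilateral RGCs and 8.98, 9.98 and 10.19 in contralateral RGCs. That difference, −0.88 (SE 0.45) or 1.84-fold, was the largest of the 22, although ipsilateral round 2 lay above contralateral round 1. The remaining 2 Mapt probe sets gave −0.61 and −0.38, and the one with −0.38 was 0.03 higher in ipsilateral RGCs in round 2.

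Stmn2 had 11.15, 11.63 and 11.33 in ipsilateral RGCs and 11.23, 12.17 and 12.06 in contralateral RGCs at its brighter probe set. Contralateral round 1 was low, so the sides overlapped and the difference was slight in round 1 (−0.08) beside rounds 2 and 3 (−0.55 and −0.73). The mean difference was −0.46 (SE 0.41), and it was −0.75 without contralateral round 1 and −0.28 without contralateral round 2. At 1423280_at the ipsilateral arrays were all below the contralateral arrays, with a difference of −0.62 (SE 0.40) or 1.54-fold.

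Gap43, read by 1 probe set, had 12.11, 12.63 and 12.26 in ipsilateral RGCs, against 12.37, 12.78 and 12.71 in contralateral RGCs. It was lower in every round, but ipsilateral round 2 exceeded contralateral round 1, and the difference was −0.29 (SE 0.39) or 1.22-fold. It was −0.18 without ipsilateral round 1 and −0.44 without ipsilateral round 2.

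In the fit without a block, the 95% intervals for the 10 genes at the brightest probe set had lower bounds between −1.48 and −0.99. Their upper bounds lay between 0.33 and 0.64. They held both no difference and, for all but Nefl, a 2-fold lower level in ipsilateral RGCs. The fit with the round as a block had SEs of 0.14 to 0.29 for the 22 probe sets. Its unadjusted 95% intervals at the brightest probe set lay below 0 for Nefm (−0.84 to −0.15) and Ina (−0.73 to −0.02). They did so for Stmn2 (−0.91 to −0.004) and Dcx (−0.71 to −0.01) too. Those of the other genes held no difference, and only that of Nefh (−1.27 to 0.19) reached a 2-fold lower level. In the blocked fit 14 of the 22 had an unadjusted p under 0.05, against 6.79% of all probe sets and 12.7% of the bright ones on the lower side. None passed the adjusted threshold there either (lowest adjusted p = 0.154, Mapt 1424719_a_at).

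**Figure D2:**
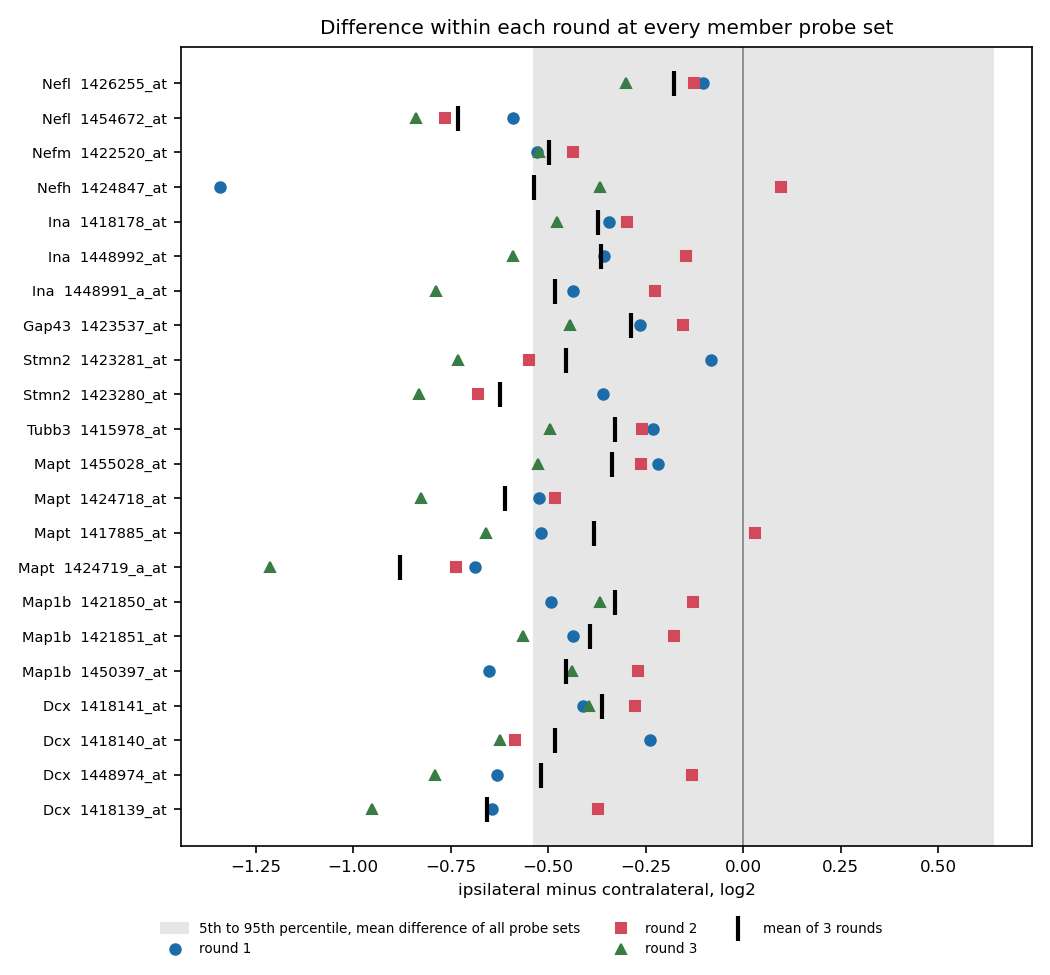
Ipsilateral minus contralateral log2 intensity of all 22 member probe sets in each round (coloured points) and on average (black bars). The grey band spans the 5th to 95th percentile of the mean difference over all probe sets, −0.54 to 0.64. All 22 averages lie left of 0, 5 of them beyond the left edge of the band, and round 2 of Nefh and of Mapt 1417885_at are the points right of 0.

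Probe sets of the same gene differed in size, though not in direction. In all 6 genes read by more than 1 probe set, the dimmest had a more negative difference than the brightest, against 52.0% of the 7433 genes with 2 or more probe sets. The gap was −0.55 ± 0.08 for Nefl, −0.54 ± 0.12 for Mapt and −0.29 ± 0.24 for Dcx (SD over 3 rounds). It was smaller for Stmn2 (−0.17 ± 0.09), Map1b (−0.12 ± 0.05) and Ina (−0.11 ± 0.19). In 5 of the 6 genes it was negative in every round, against 17.4% of all such genes, and Ina was the exception in round 2. Over the 22 probe sets the mean level and the difference had a Pearson correlation of 0.57, and of 0.83 over the 21 without Nefh. This is a description, since probe sets share genes and all come from the same 6 arrays. From 8 to 12 of the member probe sets were above the 99th percentile of their array (log2 11.4 to 11.9), whose highest values were 14.4 to 14.5, and whether brightness compressed these differences was not tested.

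**Figure D3:**
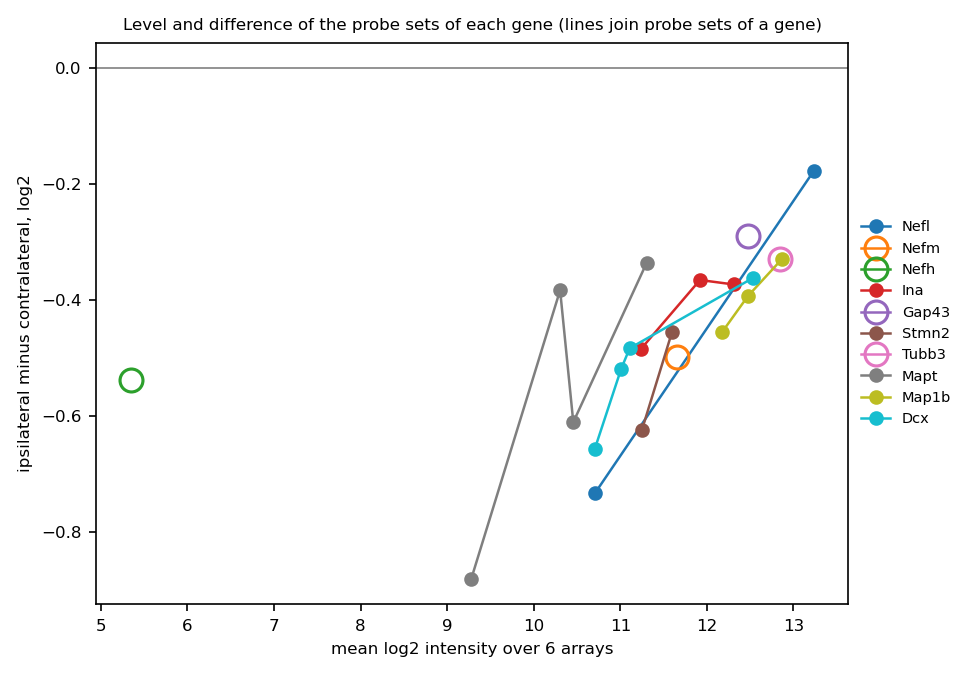
Mean log2 intensity over the 6 arrays (horizontal) and ipsilateral minus contralateral difference (vertical) of the 22 probe sets. Lines join probe sets of a gene, and open circles are genes with 1 probe set. The difference is nearest to 0 for the brightest Nefl probe set (−0.18) and farthest for the dimmest Mapt probe set (−0.88), and Nefh stands alone at the dim end.

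The arrays differed more between rounds than between sides. Their medians were 5.81, 6.70 and 6.33 in ipsilateral and 5.80, 6.65 and 6.26 in contralateral RGCs. The 3′ minus 5′ control difference of Gapdh, which grows as RNA or cDNA shortens, was 2.25, 2.32 and 2.58 in ipsilateral RGCs and 2.25, 2.13 and 2.32 in contralateral RGCs. It was thus higher in ipsilateral RGCs in rounds 2 and 3 and nearly equal in round 1, while the member median was lower in all rounds. The same measure for Actb was −0.24, −0.14 and 0.04 in ipsilateral RGCs and −0.32, −0.18 and 0.11 in contralateral RGCs, and for the transferrin receptor −1.45, −1.99 and −1.70 in ipsilateral RGCs and −1.92, −1.41 and −1.74 in contralateral RGCs. The 3 controls thus did not share a direction in every round, and their part in the member differences was not tested.

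Markers of RGCs and microglia, and most of those of progenitors and dividing cells, moved with the sides. Of the RGC markers 11 of 12 were measured, and all 11 were lower in ipsilateral RGCs in every round (median −0.45, summed linear intensity 20420 to 27810 in ipsilateral and 26990 to 35550 in contralateral RGCs). The brightest of the 11 was Pou4f1 (Brn3a, 12.51 in ipsilateral and 12.96 in contralateral RGCs), which the study names as a marker of contralateral RGCs. The list and its sums thus do not measure RGC content alone. The summed intensity of the 10 members was 43060 to 48070 in ipsilateral and 52580 to 59630 in contralateral RGCs, with no overlap. Markers of microglia and macrophages were higher in ipsilateral RGCs in every round, 16 of 16 measured of 18 listed, with a median of 3.73 and summed intensities of 9312 to 15360 in ipsilateral and 491 to 1157 in contralateral RGCs. In contralateral RGCs 5 of these 16 had a mean below the filter level. Of the retinal progenitor markers 13 of 14 were measured (median 1.59), and 11 of the 13 were higher in every round. They summed to 12250 to 23780 in ipsilateral and 7137 to 7683 in contralateral RGCs. Of the markers of dividing cells 13 of 14 were measured (median 1.49), and 11 of the 13 were higher in every round. They summed to 7185 to 20320 in ipsilateral and 3042 to 3508 in contralateral RGCs. The remaining markers of both lists changed direction between rounds. The photoreceptor precursor list had a median of 0.90 over 5 genes measured of 7 listed, with 3 higher and 1 lower in every round. Its genes summed to 616 to 940.2 in ipsilateral and 398.1 to 450.0 in contralateral RGCs. Medians were nearer 0 for amacrine and horizontal cells (0.07), endothelial cells (−0.09), astrocytes (0.03) and red blood cells (0.16). The summed intensities of these 4 lists overlapped between the sides. Their medians cover genes that differed: of 10 amacrine and horizontal genes 4 were higher and 1 lower in every round. Of 5 endothelial genes 1 was higher and 3 lower in every round (17.6% and 20.2% of all genes). A measured intensity does not show by itself that a cell type was present, and several listed markers did not pass the filter. How much of the lower member values came with these markers was not tested.

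The other genes of the axonal cytoskeleton mostly leaned the way of the members. Of 97 genes measured on 6 lists, 60 were lower (20.2% of all genes) and 11 higher (17.6%) in ipsilateral RGCs in every round. The median difference was −0.26, and 1 was called higher (0.358% of all genes) and 0 lower (0.0% of all genes). Without adjustment the same thresholds gave 2 higher genes (2.05% of all probe sets) and 0 lower (0.239%).

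Stathmins other than Stmn2 were lower in every round, 3 of 3, with differences of −0.39 for Stmn3, −0.26 for Stmn4 and −0.15 for Stmn1. Other growth cone proteins had a median of −0.28, with 19 of 26 lower and 1 higher in every round and none called. Nrn1 (neuritin, a small anchored protein that favours neurite growth) differed by −0.71 and Dbn1 (drebrin, which binds actin) by −0.60, both lower in every round. Coro1a, an actin binding protein abundant in leukocytes, was the gene higher in every round (0.61 on average), as were the microglial markers, and their part in its value was not tested.

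Other microtubule binding proteins had a median of −0.34, with 19 of 27 lower and 1 higher in every round. Mapre2 and Mapre3, which bind growing microtubule ends, differed by −0.55 and −0.54, and Nav3 by −0.53, with adjusted p = 1.0 each. The gene that rose was Map7, which binds microtubules and recruits kinesin. It was higher by 1.71, 2.15 and 3.15 in rounds 1, 2 and 3, on average by 2.34 (SE 0.43), with adjusted p = 0.0386 by limma. Its other 2 probe sets were higher in every round by 1.02 and 1.56 on average without passing. The study lists the brightest probe set and the one with 1.02, under the name Mtap7, as higher in ipsilateral RGCs by its own thresholds. Here the call held with a filter at the 50th percentile (adjusted p = 0.00849), an intensity trend (0.0113) and array weights (1.47e-06). It also held without ipsilateral round 1 (0.0142), ipsilateral round 2 (0.0104) or contralateral round 1 (0.0264). The call was lost with the round as a block (adjusted p = 0.0745), with no filter (0.0610), after quantile normalization (0.174) or median centring (0.120), with the mean of its probe sets (1.64, 0.0878), without any whole round (0.289 to 1.0), and without ipsilateral round 3 (0.263), contralateral round 3 (0.220) or contralateral round 2 (0.0626).

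Tubulins other than Tubb3 had a median of −0.14, with 6 of 12 lower and 2 higher in every round and none called. Tuba1b and Tuba1c, 2 of the 14 listed, were not measured, since no probe set named either alone. The study lists a probe set shared by Tuba1a, Tuba1b, Tuba1c and other entries as higher in ipsilateral RGCs by its own thresholds. Tubb4a differed by −0.41 and Tube1 (ε-tubulin, of centrioles) by 0.30. Tubb6, counted above at its brighter probe set, was read differently by its 2 probe sets. They gave −0.43 at the brighter and 1.28 at the dimmer, each with the same sign in every round. The study lists the dimmer as higher in ipsilateral RGCs, and the direction of Tubb6 is not settled here. Spectrins, ankyrins and tubulin modifying enzymes had a median of −0.35, with 12 of 20 lower and 2 higher in every round. Ttll7 and Ttll1, ligases that add glutamate chains to tubulin, differed by −0.86 each, and Vash2, which removes the terminal tyrosine of α-tubulin, by −0.75, all with adjusted p = 1.0.

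Intermediate filament genes outside the members had a median on the other side of 0 (0.23), with 5 of 9 higher and 1 lower in every round and none called. Nes, the filament protein of neural progenitors, was higher in ipsilateral RGCs by 1.43, 2.24 and 2.55 in rounds 1, 2 and 3, on average by 2.07 (SE 0.41), with adjusted p = 0.0703. Its other 2 probe sets were higher by 0.66 and 0.79, and the mean of its probe sets by 1.18 (adjusted p = 0.499). Nes passed the threshold with a filter at the 50th percentile (0.0185), median centring (0.0331), an intensity trend (0.0173), array weights (5.86e-06) and without ipsilateral round 1 (0.0135), and its adjusted p was 0.0522 to 1.0 in the others. Vim, of progenitors, glia and macrophages, averaged 12.47 in ipsilateral and 11.65 in contralateral RGCs. Its difference was 0.82 with adjusted p = 1.0, and its other probe sets gave 0.93 and 1.11. The study lists Nes and the Vim probe set with 1.11 as higher in ipsilateral RGCs by its own thresholds. Lmna, of the nuclear lamina, differed by 1.0 at its brightest probe set and by −0.14 to 0.28 at the other 4. Prph, a filament gene of neurons, was higher in every round at its brightest probe set (0.23 on average), while its other probe sets gave −0.38 to 0.002. Synm was lower in every round (−0.30 on average). The member filament genes Nefl, Nefm, Nefh and Ina thus had negative differences beside positive ones for Nes and Vim on the same arrays, and Prph did not share their direction at its brightest probe set. The retinal progenitor markers were mostly higher in ipsilateral RGCs too (median 1.59, 11 of 13 in every round). Their part in the Nes and Vim values was not tested.

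**Figure D4:**
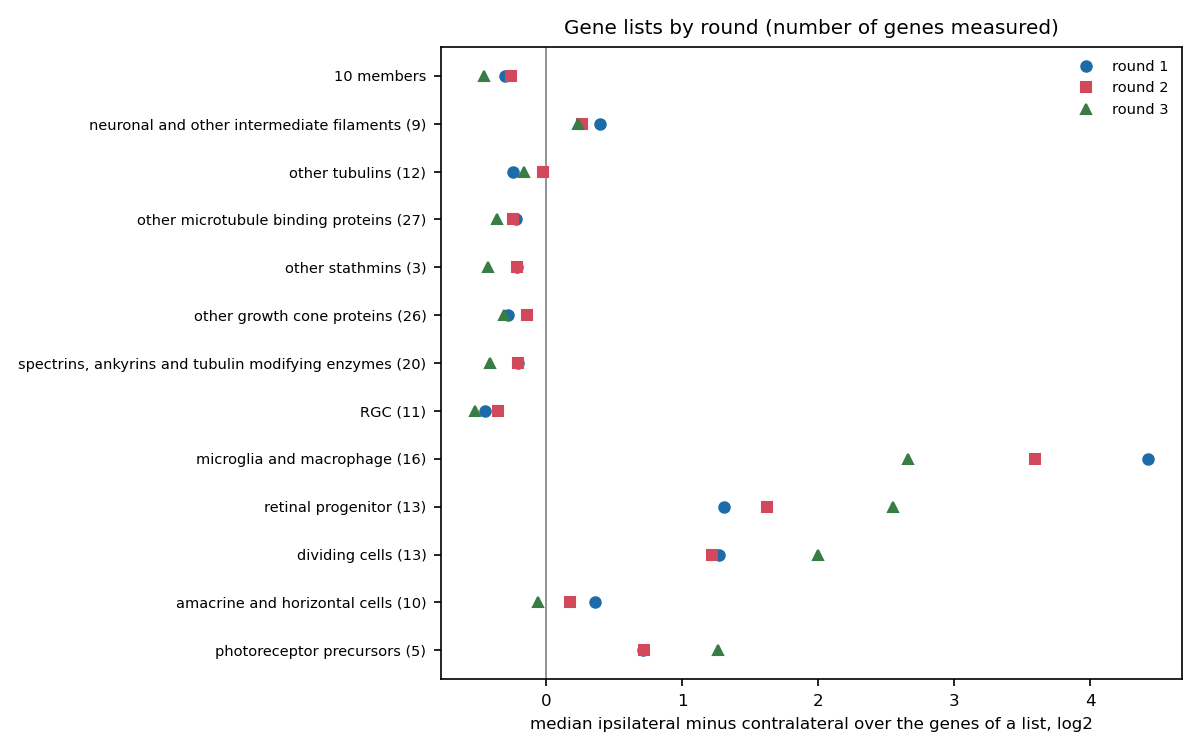
Median ipsilateral minus contralateral difference (log2) of the 10 members, 6 related lists and 6 marker lists in each of 3 rounds, with the number of genes measured in brackets. The members lie between −0.46 and −0.26 and the RGC markers between −0.53 and −0.35, while the microglial list lies between 2.66 and 4.43 and the progenitor list between 1.31 and 2.55.

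The genes whose pattern over the 6 arrays was most like the mean of the members, after the median of each array was subtracted, were Acpp, Yars, Muc1, Kalrn and Rasip1, with Pearson correlations of 0.995, 0.994, 0.994, 0.992 and 0.991. Among the members themselves the correlation with this mean, of which each is a part, ran from 0.70 (Stmn2) and 0.73 (Nefh) to 0.98 (Tubb3) and 0.99 (Dcx). The mean profile was 5.46, 4.86 and 5.13 above the array median in ipsilateral RGCs, against 5.88, 5.15 and 5.66 in contralateral RGCs. The order of the rounds was thus the same on both sides, and the 6 points share rounds and array medians. Those medians were lowest in round 1 and highest in round 2 (5.81, 6.70 and 6.33 in ipsilateral RGCs), the reverse of the profile. Subtracting them gives any probe set with steady intensities the round order of the members. The correlations therefore cannot tell likeness to the members from the effect of the subtracted medians. Acpp, Muc1 and Rasip1 were dimmer (mean log2 5.69, 6.06 and 5.11) than Yars and Kalrn (7.81 and 9.88). Each of the 5 genes had a small negative difference, from −0.49 for Yars to −0.15 for Rasip1, and none was called.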

How the data were processed

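The authors summarized the scans with RMA in Affymetrix Expression Console 1.1 and deposited 1 log2 intensity for each probe set and array. Whether all arrays were normalized together is not given in the sources used here. The files hold 45101 probe sets, and 64 controls were left out. Of the rest 34945 name 1 gene and 932 several, and those with a mean at or above the 20th percentile (log2 4.74) were kept (36029 probe sets). The sides were tested by limma 3.58.1 (R 4.3.3) without a block, since the methods state a 2-fold change and an adjusted p under 0.05 but name no test. With 3 arrays against 3 an exact permutation test cannot go below p = 0.10, and the number of arrays limits the precision. The fit was also run on simulated arrays without shared rounds and with planted differences larger than those of the members. That run cannot show whether differences of the members' size would be called.

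Sample numbers pair the sides, because the methods state a shared preparation per round, and same-numbered arrays deviated together (correlations 0.511, 0.541 and 0.612, against −0.353 to −0.208 for other pairs). The sides are compared within a probe set, and levels of different probe sets are set beside each other only as a description. The gene level is the brightest probe set. The text names every member, the called genes and up to 3 genes with the largest difference of each related list. It also names the 5 genes most correlated with the member mean after the array medians were subtracted. The members and lists were chosen with earlier results of these data known. Genome positions are those of the promoter table, since the values carry no build. The alternatives were the replicate block, other filters, quantile normalization, median centring, an intensity trend, array weights, the mean of all probe sets, unadjusted p and leaving out each array, and leaving out a whole round was added after seeing the data.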

Additional observations from a re-analysis of the deposited data

How the results depend on the processing

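Each of the 10 member genes kept a negative difference and no call under every alternative that gave it a value (169 values over genes and alternatives, −0.85 to −0.10, with adjusted p 0.0751 to 1.0), and the replicate block changed no call of a member. The median member difference of −0.35 was −0.43 to −0.30 without single arrays, −0.41 to −0.31 without a round and −0.48 with the mean of all probe sets. Member probe sets called stayed at 0 except with array weights, which called 1, Mapt 1424719_a_at (−1.15, adjusted p 0.00614). These weights were 5.67 and 6.12 for the ipsilateral and contralateral arrays of round 3 and 0.281 to 0.657 for the others, and their estimate did not converge. Over all probe sets 88 were called, against 75 with the block, 826 by unadjusted p, 179 with an intensity trend, 1149 with array weights and 53 to 220 without single arrays (220 without ipsilateral round 1, 53 without ipsilateral round 3 and 56 without contralateral round 3). Of the related genes 1 was called, against 0 with the replicate block, without a filter or with quantile normalization, 2 by unadjusted p, with a filter at the 50th percentile or with an intensity trend, 4 with array weights and 0 to 2 without single arrays. The filter at the 50th percentile (log2 6.25) removed Nefh, so it gave no value there.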
